A study of Homo sapiens and Mus musculus with 36 samples.

Results

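The 8 enzymes described here are CYP51A1, TM7SF2, MSMO1, NSDHL, HSD17B7, EBP, SC5D and DHCR7, which act after lanosterol in cholesterol synthesis. They were chosen by gene symbol. All 8 had a row in each of the 13 deposited comparison tables, which held between 15208 and 19329 named genes. In the mouse tables CYP51A1 is listed as Cyp51.

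Lanosterol is the earliest sterol ring of the pathway, and these enzymes turn it into cholesterol in the endoplasmic reticulum. CYP51A1, a cytochrome P450, removes a methyl group from the ring, and TM7SF2 is a reductase that acts on its product, an activity it shares with LBR. MSMO1 oxidises the remaining pair of methyl groups, NSDHL, a dehydrogenase, removes them as carbon dioxide, and HSD17B7 reduces the ketone that is left. EBP is an isomerase that moves a double bond, SC5D is a desaturase, and DHCR7 is the reductase that completes cholesterol. Genes of the pathway are textbook targets of SREBP2, the transcription factor encoded by SREBF2, which is cut and released to the nucleus when membrane sterols are low. Liver cells are a main site of the pathway.

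Coordinates are from the GENCODE annotation of GRCh38 and span each gene from its outermost exons, introns included. CYP51A1 lies on the minus strand of chr7:92112151-92134803, MSMO1 on the plus strand of chr4:165327623-165343160 and HSD17B7 on the plus strand of chr1:162790702-162812817. TM7SF2 at chr11:65111845-65116384 and SC5D at chr11:121292453-121308694 are on the plus strand, and DHCR7 at chr11:71428193-71452868 is on the minus strand. NSDHL at chrX:152830967-152869729 and EBP at chrX:48521158-48528716 are on the plus strand. CYP51A1 and DHCR7 each overlap 1 annotated gene on the other strand. Whether counting used strand is not given in the sources used here, so reads of such partners cannot be told apart. CYP51A1 and TM7SF2 also overlap protein-coding genes on their own strand. HSD17B7 has a near-identical pseudogene copy, HSD17B7P2, and its values are uncertain where reads were split between them.

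The promoters of 4 members are shown because MSMO1 and NSDHL were among the most lowered, DHCR7 had the highest level per length, and TM7SF2 was usually among the least lowered. Sequences are from RefSeq (GRCh38.p14), read 5′ to 3′ on the gene's strand, and cover the 250 bases before a start that RefSeq annotates. These starts differ from the outermost gene ends given above. For DHCR7 the table holds a second window further upstream, chr11:71449044-71449293, without these motifs, and the printed one lies inside the gene as GENCODE draws it. Capitals mark CCAAT on either strand, the motif of NF-Y, and in MSMO1 also TCACNCCA, a motif like the sterol response element. The windows are chr4:165327419-165327668 (plus) for MSMO1, chrX:152830813-152831062 (plus) for NSDHL, chr11:71448394-71448643 (minus) for DHCR7 and chr11:65111622-65111871 (plus) for TM7SF2.
MSMO1: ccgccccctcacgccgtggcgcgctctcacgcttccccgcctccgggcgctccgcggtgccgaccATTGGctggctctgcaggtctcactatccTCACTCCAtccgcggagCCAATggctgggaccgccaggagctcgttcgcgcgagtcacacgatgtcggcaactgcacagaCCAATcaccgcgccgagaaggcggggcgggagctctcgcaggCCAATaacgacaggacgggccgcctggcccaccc
NSDHL: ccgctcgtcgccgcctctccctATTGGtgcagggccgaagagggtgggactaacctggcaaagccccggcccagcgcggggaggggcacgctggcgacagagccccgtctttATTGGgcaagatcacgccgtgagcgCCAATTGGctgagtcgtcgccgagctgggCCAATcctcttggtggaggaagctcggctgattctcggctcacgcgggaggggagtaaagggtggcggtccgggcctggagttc
DHCR7: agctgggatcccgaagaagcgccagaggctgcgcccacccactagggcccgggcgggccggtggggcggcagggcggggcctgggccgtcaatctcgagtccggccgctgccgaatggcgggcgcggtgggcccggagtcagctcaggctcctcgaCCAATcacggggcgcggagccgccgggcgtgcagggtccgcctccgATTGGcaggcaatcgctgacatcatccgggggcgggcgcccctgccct
TM7SF2: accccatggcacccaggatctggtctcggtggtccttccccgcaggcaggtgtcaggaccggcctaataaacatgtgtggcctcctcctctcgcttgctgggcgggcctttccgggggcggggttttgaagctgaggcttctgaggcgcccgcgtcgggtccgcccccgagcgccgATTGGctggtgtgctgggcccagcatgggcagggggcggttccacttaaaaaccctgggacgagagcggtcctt
All 8 members matched the promoter table, which also covers 50 bases after each start. DHCR7 and SC5D have a second window there. Each member was counted by its window with the most matches, while the percentages are of single windows, so the units differ. TCACNCCA was found in 1 member, MSMO1, and in 3.95% of all 34943 promoters of the same length. CCAAT was found in 7 members, all but CYP51A1, and in 34.6% of all promoters. At least 2 matches stood in 5 members, against 10.8% of all promoters. NSDHL had 5 matches, of which a pair overlaps as CCAATTGG, and MSMO1 had 4. TM7SF2 had 1. GGGCGG, the motif of Sp1, was found in 7 members and in 44.9% of all promoters. Both strands were searched, and a match is a description of these letters only.

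The series holds RNA sequencing of 36 libraries, 2 in each of 18 groups. HepG2 and Huh7 are human liver cancer cell lines, and WEHI-231 is a mouse B-lymphoma line. HepG2 received 5 µM of MS7126, C24, MS7126N1 or MS7126N2, or DMSO, for 48 h, Huh7 received 5 µM of MS7126 or DMSO for 24 h, and WEHI-231 received 1 µM of MS8815, EPZ-6438 or MS8815N, or DMSO, for 16 h. Another label gives Huh7 the same time as HepG2, so the Huh7 time is uncertain. MS7126 and MS8815 are named as PROTACs, compounds built to have EZH2 degraded. EZH2 is the histone methyltransferase of the Polycomb complex PRC2. C24 and EPZ-6438 are named as the matched inhibitors of its catalytic domain, and MS7126N1, MS7126N2 and MS8815N as analogs that are not PROTACs. The other groups carried lentiviral short hairpins (pLKO.1-puro, selected with puromycin) against EZH2 in Huh7 and HepG2 or against SREBP2 in HepG2 (#664, #665 and #667). The labels call their control both an empty vector and a scramble. All groups of a line thus share that line's background, and hairpin groups also carry the vector.

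In Huh7, EZH2 fell from 960.4 ± 55.3 normalized counts in the control (SD, n = 2) to 152 ± 5.21 with shEZH2 (SD, n = 2). In HepG2 the libraries labelled shEZH2 went, as a group, against their label. The authors' deposited table lists EZH2 0.90 higher on the log2 scale (SE 0.38, adjusted p = 0.0337). That SE is large for a mean of 1225 normalized counts, since NSDHL, with a mean of 1103 there, had an SE of 0.11. Without library values, whether EZH2 was raised in both libraries cannot be told. This group is called "the libraries labelled shEZH2" throughout. SREBF2 was lower by log2 values of -1.58 with #664, -1.08 with #665 and -2.35 with #667 in the authors' deposited tables (SE 0.06, 0.12 and 0.42). The #667 value was the least certain of these, with a 95% interval of -3.16 to -1.54. PROTACs act on protein, so EZH2 transcript levels do not check them. All 8 hepatocyte markers had rows in every human table, and all 8 B-cell markers in every WEHI-231 table. Their summed means ran from 185913 to 1699680 normalized counts in the human tables, against 55.4 to 826 for the fibroblast and the leukocyte markers, and T-cell and myeloid markers summed to at most 111 in WEHI-231 (authors' deposited tables). Totals in the Huh7 shEZH2 table ran from 10125407 to 11978920 estimated counts per library. Depths per library of the other tables were not analysed here. Separate cultures are not named in the labels, so the p-values cover the spread of the sequenced libraries, which may be technical alone. Between Huh7 hairpin libraries, variance was 1.58 (control) and 1.49 (shEZH2) times that of sampling noise alone (chi-square per degree of freedom). The edgeR common coefficient of variation beyond that noise was 0.0187. In bulk RNA, fewer cells with a transcript and less of it per cell cannot be told apart.

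In control cells the members differed widely in level. Per kilobase of their main transcript, DHCR7 stood at 2545 and 2489 normalized counts in the 2 Huh7 control libraries. EBP followed at 2449 and 2328, MSMO1 at 1862.5 and 1863, and CYP51A1 at 1091 and 1075. The remaining members were lower: SC5D had 363 and 352, TM7SF2 271 and 262, NSDHL 251 and 274, and HSD17B7 185 and 179.6. TM7SF2 and NSDHL were the only neighbours in this order whose libraries overlapped. In HepG2 with DMSO, levels per kilobase rebuilt from the authors' deposited table of MS7126 were 1098 for DHCR7 and 892 for TM7SF2, ahead of EBP at 622, MSMO1 at 467 and CYP51A1 at 390.0. SC5D stood at 285 there, NSDHL at 251 and HSD17B7 at 134. These are levels within a line, and they were not tested between lines.

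Across the 13 comparisons the members moved together in most. All 8 were called lower in 7 comparisons and 7 of 8 in WEHI-231 with MS8815, where called means an adjusted p under 0.05. Between 8.06% and 28.6% of all genes tested were called lower in these 8 comparisons. C24 went the other way, with 5 members higher, against 3.01% of all genes, and no member was called with MS7126N1, MS7126N2, EPZ-6438 or MS8815N. Several of these comparisons share control libraries, so they are not independent.

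**Figure D1:**
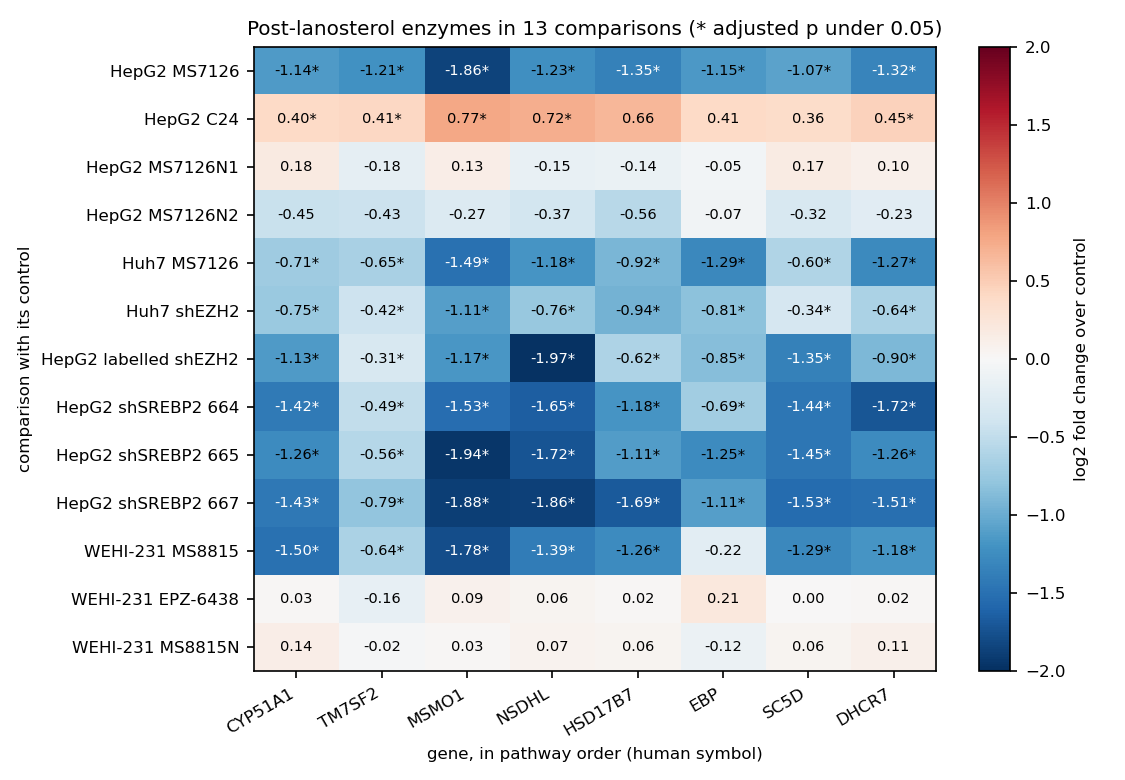
Log2 fold change over control of the 8 members (columns, in pathway order) in 13 comparisons (rows), from the authors' deposited tables and, for Huh7 shEZH2, from edgeR, with a star at adjusted p under 0.05. MSMO1 holds the lowest value of its row in HepG2 MS7126, at -1.86, and the C24 row is the only one with all 8 values above 0.35.

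Depletion of EZH2 in Huh7 was the comparison with values per library, and every member fell. Both shEZH2 libraries lay below both controls for 8 of 8 members, as they did for 34.5% of the 14581 genes tested. With edgeR's quasi-likelihood test all 8 were called lower, against 19.3% of all genes tested. The members' median log2 fold change was -0.75, and that of all genes tested 0.00. The 8 hepatocyte markers lay on both sides of 0, from -0.74 to 0.66 in the authors' deposited table, and their part in the result was not tested.

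CYP51A1, the lanosterol demethylase, had 3501 and 3451 normalized counts in the controls and 2020.2 and 2118 with shEZH2. Its change on the log2 scale was -0.75 (SE 0.03, edgeR adjusted p = 5.63e-11). TM7SF2, the next reductase, went from 467 and 451 to 329 and 356, a change of -0.42 on the log2 scale (SE 0.07, edgeR adjusted p = 0.00024). The libraries of each gene did not overlap between groups.

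The next enzymes strip the remaining methyl groups. MSMO1 had 4226 and 4227 normalized counts in the controls and 2021 and 1901 with shEZH2, 46.4% of the control mean. Its change of -1.11 on the log2 scale (SE 0.03, edgeR adjusted p = 5.03e-13) was the lowest of the 8. NSDHL had 485 and 529 in the controls and 276 and 322 with shEZH2, a change of -0.76 on the log2 scale (SE 0.08, edgeR adjusted p = 2.23e-06). HSD17B7 had 219.6 and 214 against 111 and 114, a change of -0.94 on the log2 scale (SE 0.11, edgeR adjusted p = 3.73e-06). Its pseudogene copy HSD17B7P2 stood at 16.2 ± 0.928 and 14.7 ± 2.77 normalized counts (SD, n = 2 each), an overlap between groups with an edgeR adjusted p of 0.822.

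EBP, the isomerase, had 4346 and 4133 normalized counts in the controls and 2425 and 2402 with shEZH2, a change of -0.81 on the log2 scale (SE 0.03, edgeR adjusted p = 1.48e-11). SC5D moved least, from 892 and 865 to 706 and 679.8, which is 78.9% of the control mean (log2 fold change -0.34, SE 0.05, edgeR adjusted p = 6.63e-05). DHCR7, the final reductase, had 6784 and 6636 in the controls and 4371 and 4273 with shEZH2, a change of -0.64 on the log2 scale (SE 0.03, edgeR adjusted p = 1.86e-11). SREBF2 itself went from 2576 ± 7.79 to 1815 ± 87.5 normalized counts (SD, n = 2 each), a log2 fold change of -0.51 (edgeR adjusted p = 2.39e-08).

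**Figure D2:**
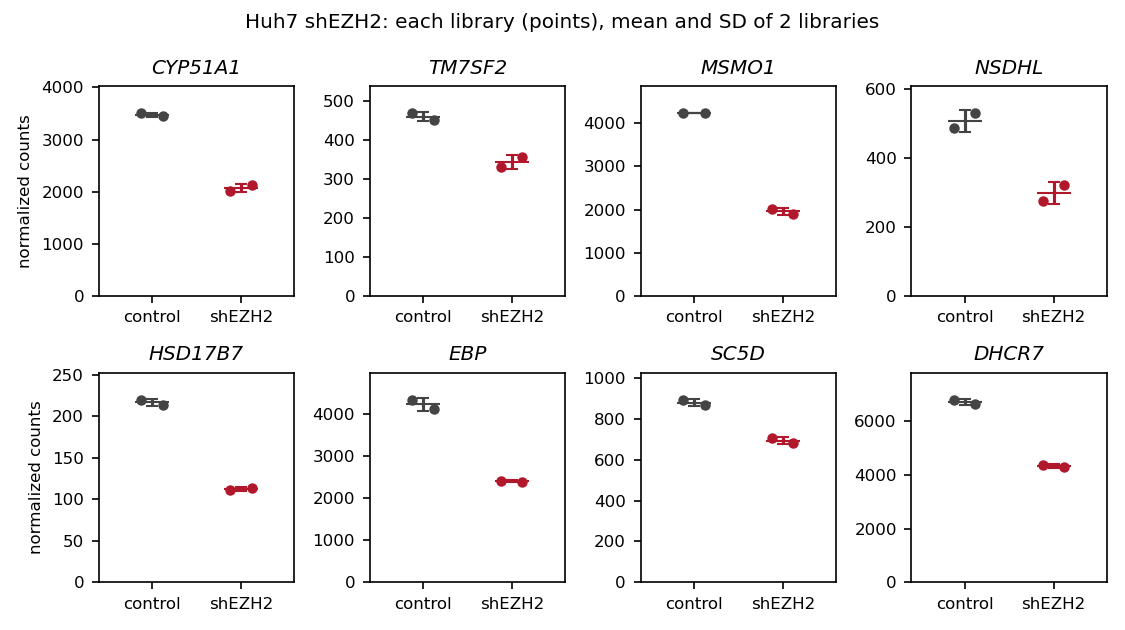
Normalized counts (vertical axis, from 0) of each member in the 2 control and 2 shEZH2 libraries of Huh7, as points, with the mean and SD. No shEZH2 library reaches a control library for any of the 8 genes.

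In HepG2, MS7126 lowered all 8 enzymes to between 27.6% and 47.6% of the DMSO level. The authors' deposited table called 8.06% of the genes tested lower, and the members' median log2 fold change was -1.22 against 0.01 for all genes tested. Group levels from these tables are rebuilt from the deposited mean and fold change, and no library values go with them. MSMO1 went from 1060.4 to 293 normalized counts in the authors' deposited table, a change of -1.86 on the log2 scale (SE 0.21, adjusted p = 5.19e-16). DHCR7 went from 2928 to 1169 there (-1.32, SE 0.14, adjusted p = 3.55e-19, authors' deposited table). HSD17B7, the least abundant member, had the largest error in the authors' deposited table: 159.7 to 62.8 normalized counts, a log2 fold change of -1.35 with an SE of 0.38 (adjusted p = 0.00535). HSD17B7P2 was listed at 0.27 (SE 0.77, adjusted p = 0.889) in the authors' deposited table.

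The other members in HepG2 lay close together. By the authors' deposited table the log2 fold changes under MS7126 were -1.14 for CYP51A1, -1.21 for TM7SF2, -1.23 for NSDHL, -1.15 for EBP and -1.07 for SC5D, with SEs from 0.17 to 0.25. SREBF2 was at -1.01 (SE 0.17, adjusted p = 8.74e-08) in the authors' deposited table. All 8 hepatocyte markers lay below 0 as well, from -1.87 to -0.23 in the authors' deposited table, and their part in the result was not tested.

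C24, the matched inhibitor, raised members instead. The authors' deposited table called 5 of 8 higher, against 3.01% of all genes tested, and none lower, against 4.01%. MSMO1 was again the furthest from the control, at 1084.5 and 1856 normalized counts in the authors' deposited table, a change of 0.77 on the log2 scale (SE 0.16, adjusted p = 0.000112). NSDHL was at 0.72 (SE 0.17, adjusted p = 0.00162) and DHCR7 at 0.45 (SE 0.10, adjusted p = 0.00092) in the authors' deposited table. TM7SF2 at 0.41 (adjusted p = 0.0244) and CYP51A1 at 0.40 (adjusted p = 0.048) were also called in the authors' deposited table. Those calls were lost when the adjustment ran over every gene with a deposited p, at adjusted p = 0.05001 and 0.0986. HSD17B7, EBP and SC5D were not called, with log2 fold changes of 0.66, 0.41 and 0.36 in the authors' deposited table (adjusted p = 0.374, 0.0704 and 0.31). All 8 hepatocyte markers lay above 0 as well under C24, from 0.00 to 0.68 in the authors' deposited table, and their part in the result was not tested. SREBF2 was called higher there as well, at 0.53 (SE 0.13, adjusted p = 0.00173, authors' deposited table).

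Neither analog that is not a PROTAC gave a call. For MS7126N1 the authors' deposited table called 0.085% of all genes lower and no member, with log2 fold changes from -0.18 (TM7SF2) to 0.18 (CYP51A1) and a median of 0.02. For MS7126N2 it called 0.341% of all genes lower and no member, but all 8 values in the authors' deposited table were below 0, from -0.56 (HSD17B7) to -0.07 (EBP), with a median of -0.35. The smallest adjusted p among them was 0.57, for TM7SF2, whose 95% interval in the authors' deposited table was -0.77 to -0.09.

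**Figure D3:**
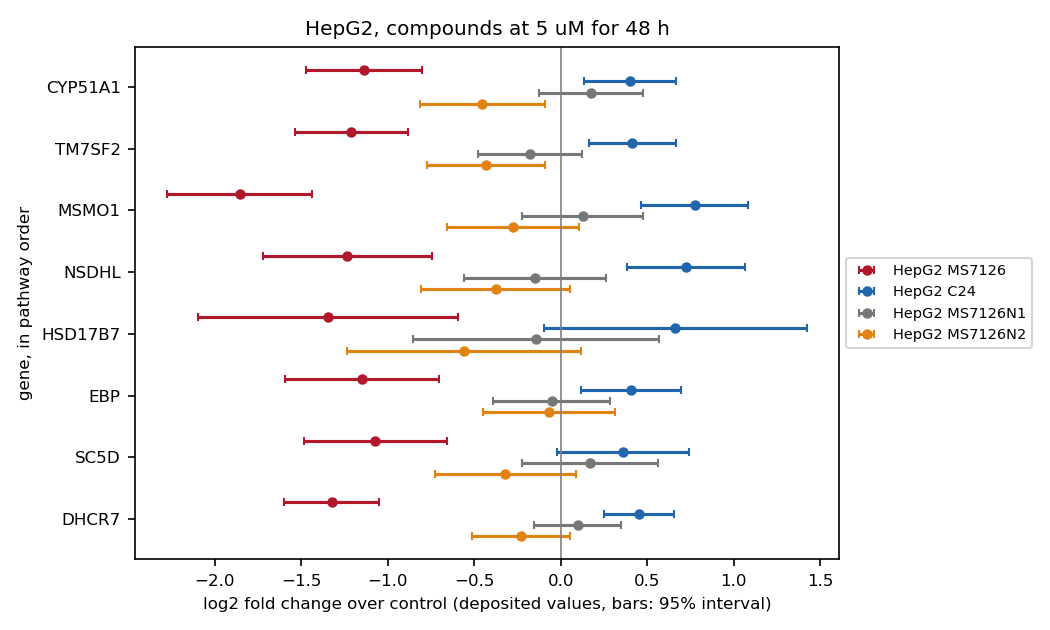
Log2 fold change over DMSO (horizontal axis, with 95% intervals) of each member in HepG2 under 4 compounds at the same dose and time, from the authors' deposited tables. The MS7126 points lie between -1.86 and -1.07, the C24 points between 0.36 and 0.77, and the analogs between -0.56 and 0.18.

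The compounds were compared at matched dose and time in 9 pairs, 6 in HepG2 and 3 in WEHI-231, by the difference of the authors' deposited log2 fold changes, with p-values adjusted over all genes of each pair. The pairs of a line share DMSO libraries, which this test ignores. MS7126 and C24 differed in all 8 members, against 4.71% of all genes. The differences (MS7126 minus C24) ran from -2.63 for MSMO1 (95% interval -3.15 to -2.11, adjusted p = 2.87e-20) to -1.43 for SC5D (95% interval -2.00 to -0.87, adjusted p = 4.75e-05).

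MS7126 was lower than MS7126N1 in 7 of 8 members, against 3.25% of all genes differing in either direction. The exception was HSD17B7, at -1.21 (95% interval -2.24 to -0.17, adjusted p = 0.31). With the covariance assumed for shared controls, HSD17B7 was called too (adjusted p = 0.0254), against 8.11% of all genes. MS7126 was lower than MS7126N2 in 3 members, against 1.35% of all genes. These were MSMO1 at -1.58, DHCR7 at -1.10 and EBP at -1.08 (adjusted p = 1.82e-05, 1.82e-05 and 0.0265). The other 5 differences from MS7126N2 ran from -0.86 to -0.68 and missed the threshold. With a covariance assumed for the shared DMSO libraries, which makes every error smaller, 7 members differed, against 4.12% of all genes.

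C24 and MS7126N1 differed in no member, against 0.111% of all genes, with 5 members at an unadjusted p under 0.05. Under the assumed covariance 3 members were called, against 1.68% of all genes. The interval for NSDHL was 0.34 to 1.41. C24 was higher than MS7126N2 in 4 members, against 0.333% of all genes. They were NSDHL at 1.10, MSMO1 at 1.05, TM7SF2 at 0.85 and DHCR7 at 0.68 (adjusted p from 0.0137 to 0.0393). Under the assumed covariance CYP51A1 was called as well (adjusted p = 0.00107), against 0.861% of all genes. The 2 analogs differed in no member, against 0.0776% of all genes, with 1 member at an unadjusted p under 0.05. That member was CYP51A1, at 0.63 (MS7126N1 minus MS7126N2, 95% interval 0.16 to 1.10, adjusted p close to 1), so these intervals do not show that the analogs act alike.

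In Huh7, MS7126 also lowered all 8 members, against 16.3% of all genes in the authors' deposited table, with a median log2 fold change of -1.05. MSMO1 went from 10690.7 to 3801 normalized counts in the authors' deposited table (-1.49, SE 0.11, adjusted p = 4.5e-43). EBP followed with 11655 and 4750.2 (-1.29, SE 0.16, adjusted p = 4.99e-15) and DHCR7 with 17932 and 7458 (-1.27, SE 0.12, adjusted p = 7.48e-25), both from the authors' deposited table. NSDHL was at -1.18, HSD17B7 at -0.92, CYP51A1 at -0.71, TM7SF2 at -0.65 and SC5D at -0.60 in the authors' deposited table, with SEs from 0.11 to 0.25. The 8 hepatocyte markers ran from -1.05 to -0.35 there in the authors' deposited table, and their part in the result was not tested. SREBF2 was at -0.39 (SE 0.12, adjusted p = 0.00482) and EZH2 at -0.46 (SE 0.13, adjusted p = 0.00194) in the authors' deposited table. The direction of this table could not be checked against another that shares its controls.

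The response to MS7126 did not differ between HepG2 and Huh7 in any member at an adjusted p under 0.05, against 5.71% of all genes. At an unadjusted p under 0.05 there were 2, TM7SF2 at -0.56 (HepG2 minus Huh7, 95% interval -1.06 to -0.06, adjusted p = 0.224) and CYP51A1 at -0.43 (95% interval -0.82 to -0.03, adjusted p = 0.255). Line and treatment time cannot be told apart here.

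Within Huh7, MS7126 lowered 3 members further than shEZH2 did, against 31.7% of all genes differing in either direction, so the share was close to the background. They were DHCR7 at -0.63 (MS7126 minus shEZH2, adjusted p = 4.14e-06), EBP at -0.48 (adjusted p = 0.0133) and MSMO1 at -0.38 (adjusted p = 0.00481), all differences of the authors' deposited values. CYP51A1, at 0.04 (95% interval -0.19 to 0.27), and HSD17B7, at 0.03 (95% interval -0.59 to 0.64), lay near 0. Controls, vector and selection differ between the compound and the hairpin sets, and cannot be told apart from the treatments here.

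Hairpins against SREBP2 lowered all 8 members in HepG2. The authors' deposited tables called 26.8% of all genes lower with #664, 20.0% with #665 and 19.3% with #667. The members' median log2 fold changes were -1.43, -1.26 and -1.52 in the authors' deposited tables. Hepatocyte markers lay on both sides of 0 there, from -1.16 to 1.52, -0.87 to 0.60 and -0.43 to 1.40. Their part in the result was not tested. NSDHL, the decarboxylating dehydrogenase, was at -1.65, -1.72 and -1.86 with #664, #665 and #667 in the authors' deposited tables (SE 0.08, 0.13 and 0.13). MSMO1 was at -1.53, -1.94 and -1.88, and SC5D at -1.44, -1.45 and -1.53, in the authors' deposited tables. CYP51A1 was at -1.42, -1.26 and -1.43, and HSD17B7 at -1.18, -1.11 and -1.69, in the authors' deposited tables.

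DHCR7 went from 9391 to 2857.5 normalized counts with #664 in the authors' deposited table, a log2 fold change of -1.72 (SE 0.04), the lowest member there, and was at -1.26 with #665 and -1.51 with #667. EBP was at -0.69, -1.25 and -1.11 with the 3 hairpins in the authors' deposited tables. TM7SF2 was the least lowered with every SREBP2 hairpin, at -0.49, -0.56 and -0.79 in the authors' deposited tables (SE 0.05, 0.10 and 0.11). Under MS7126 in the same line TM7SF2 was at -1.21 in the authors' deposited table. Controls, vector and selection differ between the sets, and that difference was not tested. HSD17B7P2 was also called lower with #664, at -0.70 (SE 0.27, adjusted p = 0.0181), and with #665, at -0.84 (SE 0.32, adjusted p = 0.0251), in the authors' deposited tables.

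The hairpins were compared in 3 pairs. Between #664 and #665, 3 members differed, against 11.6% of all genes: EBP at 0.56 (#664 minus #665, adjusted p = 0.000276), MSMO1 at 0.42 (adjusted p = 0.00634) and DHCR7 at -0.46 (adjusted p = 0.000203). Between #664 and #667, EBP differed at 0.42 (adjusted p = 0.00673), 1 of 8 against 8.95% of all genes. No member differed between #665 and #667, against 5.75%, with 1 at an unadjusted p under 0.05, HSD17B7 at 0.57 (95% interval 0.08 to 1.06).

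The libraries labelled shEZH2 in HepG2 also had all 8 members lower, against 28.6% of all genes in the authors' deposited table. NSDHL was lowest, from 1758 to 448 normalized counts in the authors' deposited table (-1.97, SE 0.11, adjusted p = 3.23e-76). SC5D was at -1.35, MSMO1 at -1.17, CYP51A1 at -1.13, DHCR7 at -0.90, EBP at -0.85, HSD17B7 at -0.62 and TM7SF2 at -0.31 in the authors' deposited table. SREBF2 was not called there, at 0.43 (SE 0.35, adjusted p = 0.288, authors' deposited table). Its SE was also large for a mean of 4412 normalized counts, against 0.06 with #664 at a mean of 3359. Hepatocyte markers ran from -0.18 to 1.56 in the libraries labelled shEZH2 (authors' deposited table). Without these libraries, all 8 members were still lower in 6 comparisons.

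Set against Huh7 shEZH2, these libraries differed in 4 members, against 51.5% of all genes, in a comparison added after the data were seen. Given the EZH2 level above, this difference between lines rests on libraries whose mean EZH2 level goes against their label.

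**Figure D4:**
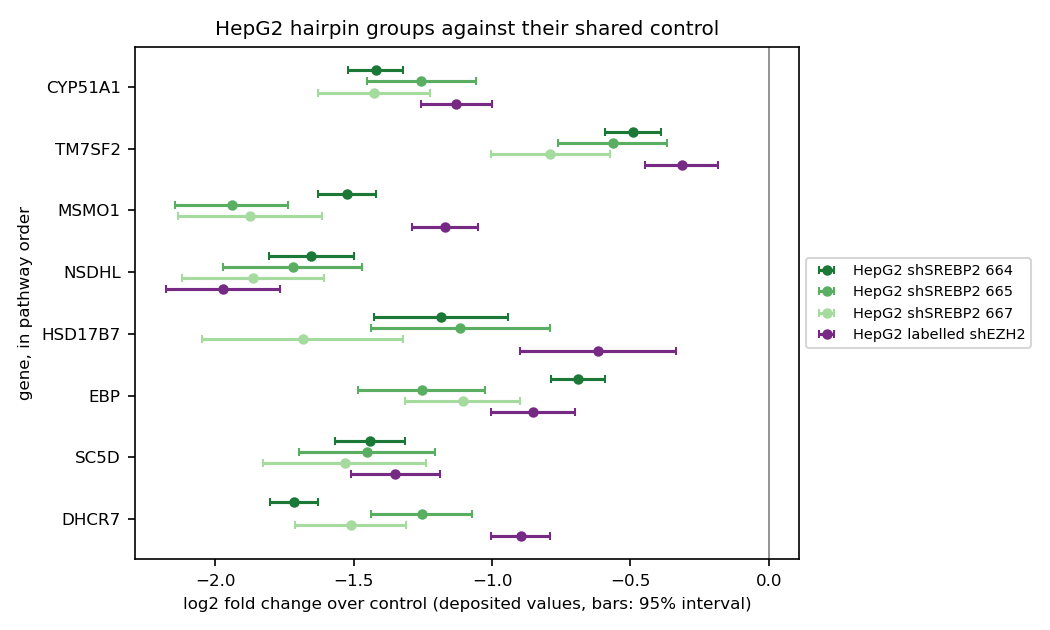
Log2 fold change over the control hairpin (horizontal axis, with 95% intervals) of each member for 3 SREBP2 hairpins and for the libraries labelled shEZH2 in HepG2, from the authors' deposited tables. All points lie below 0, and TM7SF2 lies between -0.79 and -0.31.

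In WEHI-231, MS8815 lowered 7 of 8 members, against 11.8% of all genes in the authors' deposited table, with a median log2 fold change of -1.28. Msmo1 went from 2787 to 813 normalized counts (-1.78, SE 0.10, adjusted p = 2.64e-73) and Cyp51 from 9648 to 3413 (-1.50, SE 0.07, adjusted p = 1.82e-105) in the authors' deposited table. Nsdhl was at -1.39, Sc5d at -1.29, Hsd17b7 at -1.26 and Dhcr7 at -1.18 in the authors' deposited table, with SEs from 0.12 to 0.13. Srebf2 was at -0.55 (SE 0.05, adjusted p = 6.22e-24) and Ezh2 at -0.24 (SE 0.07, adjusted p = 0.00648) in the authors' deposited table. Tm7sf2 had the fewest counts, 313 and 201, and was near the threshold in the authors' deposited table (-0.64, SE 0.24, adjusted p = 0.0458). Over every gene with a deposited p its adjusted p was 0.0673. Ebp was the exception, at 701 and 603 normalized counts in the authors' deposited table (-0.22, 95% interval -0.50 to 0.06, adjusted p = 0.353).

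EPZ-6438 and MS8815N each gave no member call. The authors' deposited tables called 0.122% and 0.0689% of all genes lower, and the members' medians were 0.03 and 0.06. Values under EPZ-6438 ran from -0.16 (Tm7sf2) to 0.21 (Ebp) and under MS8815N from -0.12 (Ebp) to 0.14 (Cyp51) in the authors' deposited tables.

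MS8815 was lower than EPZ-6438 in 6 members, against 3.09% of all genes differing, and lower than MS8815N in 6, against 1.98%. Msmo1 differed by -1.87 from EPZ-6438 (95% interval -2.10 to -1.63) and by -1.80 from MS8815N (95% interval -2.05 to -1.55). Tm7sf2 and Ebp missed the threshold in both pairs. Ebp differed by -0.42 from EPZ-6438 (95% interval -0.82 to -0.03, adjusted p = 0.453, or 0.0438 under the assumed covariance, which called 7.64% of all genes) and by -0.09 from MS8815N (95% interval -0.52 to 0.33). EPZ-6438 and MS8815N differed in no member, against 0.0255% of all genes, and none reached an unadjusted p under 0.05. For Tm7sf2 that interval was wide, from -0.81 to 0.52.

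**Figure D5:**
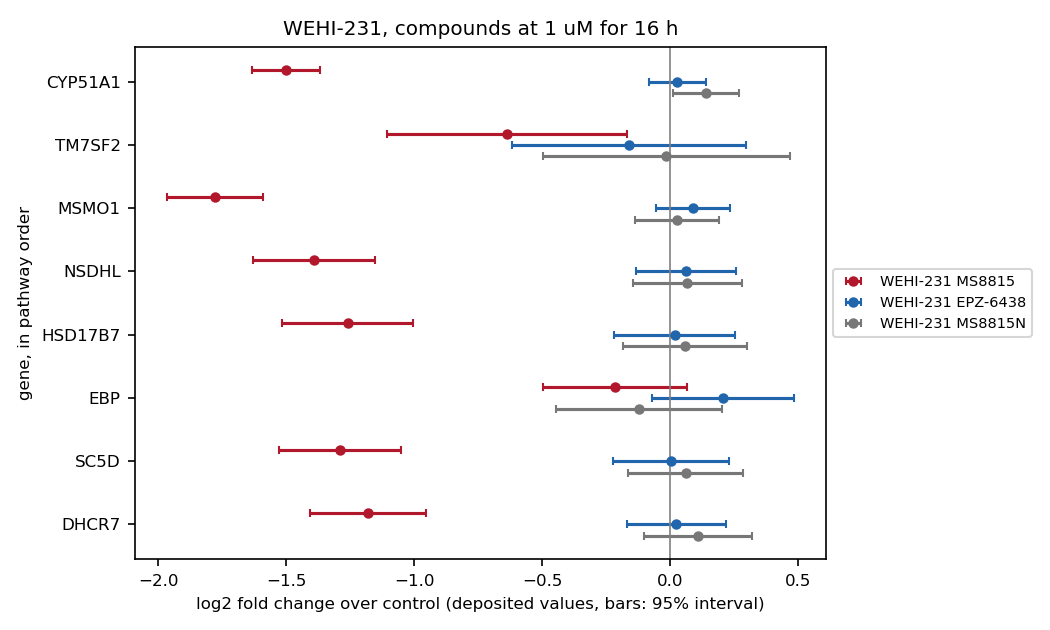
Log2 fold change over DMSO (horizontal axis, with 95% intervals) of each member (human symbols) in WEHI-231 under 3 compounds at the same dose and time, from the authors' deposited tables. MS8815 points lie between -1.78 and -0.22, and those of the other 2 compounds between -0.16 and 0.21.

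MSMO1 and TM7SF2 often stood at opposite ends of the order of the members. Over the 8 comparisons with at least 7 members lower, by the authors' deposited values, MSMO1 had the lowest log2 fold change in 6, and TM7SF2 was among the 2 least lowered in 7. Without the libraries labelled shEZH2 in HepG2 the counts were 6 and 6 of 7. HepG2 MS7126 was the exception for TM7SF2, where SC5D and CYP51A1 were the least lowered.

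The genes whose deposited log2 fold changes over the 10 human comparisons were most like the members' median were FDFT1, IDI1, MVD, LSS and MVK, each with a Pearson r of 0.98. They were picked among 7763 genes whose mean reached 100 normalized counts in every comparison. The authors' deposited tables behind these values share control libraries, so r is a description, and 29 genes had an r over 0.9 (52 of 7765 without the libraries labelled shEZH2). All of the 5 are enzymes of the earlier pathway. Without the libraries labelled shEZH2 the 5 were ACAT2, FDFT1, MVD, IDI1 and FDPS, and the r of SREBF2 was 0.89 in place of 0.76.

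The other 14 genes of cholesterol synthesis were counted by the same tests. Lower calls numbered 11 with MS7126 in HepG2, 13 with MS7126 in Huh7, 12 with shEZH2 in Huh7, 14 with #664 and #665, 11 with #667, 14 in the libraries labelled shEZH2 and 13 with MS8815. Between 8.06% and 28.6% of all genes tested were called lower in these comparisons. C24 raised 9 of the 13 with an adjusted p, against 3.01% of all genes. No gene of the list was called with MS7126N1, MS7126N2, EPZ-6438 or MS8815N, where at most 0.341% of all genes were called lower.

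LBR, the other reductase for the step of TM7SF2, changed less than most. It was at -0.29 (SE 0.21, adjusted p = 0.427) under MS7126 in HepG2, -0.52 (SE 0.15, adjusted p = 0.00352) under MS7126 in Huh7 and -0.35 (SE 0.05) with #664 in the authors' deposited tables. In Huh7 with shEZH2, LBR had an edgeR log2 fold change of -0.24 (SE 0.03, adjusted p = 3.25e-05). By the authors' deposited tables LBR was at -0.40 with #665 (adjusted p = 0.0033) and -0.25 with #667 (adjusted p = 0.0842). In the libraries labelled shEZH2 LBR was at -0.54 (SE 0.07), further down than TM7SF2 at -0.31 (authors' deposited table). Lbr was at -0.38 (SE 0.06) in WEHI-231 with MS8815 in the authors' deposited table. GGPS1, which makes a prenyl lipid off the sterol route, was at 0.29 in HepG2 and 0.28 in Huh7 with MS7126 in the authors' deposited tables (not called). It was called lower with #664 at -0.26 (adjusted p = 0.00218), with #665 at -0.32 (adjusted p = 0.0228) and in the libraries labelled shEZH2 at -0.28 (adjusted p = 0.00826) in the authors' deposited tables. With shEZH2 in Huh7, GGPS1 was called higher by edgeR (0.20, SE 0.07, adjusted p = 0.0413) but not in the authors' deposited table (0.20, SE 0.11, adjusted p = 0.193).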

How the data were processed

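RNA was sequenced from 36 libraries, grouped by their labels. STAR 2.4.2, Salmon and the builds GRCh38 and mm10 are named in the submitters' processing notes. Kits were TruSeq v2 or NEBNext Ultra II, per the labels' protocols, with no word on which library used which. For 12 of the 13 comparisons the authors' own results were used. Their columns, per the file headers, are a mean signal in normalized counts, the log2 fold change and its standard error, the test statistic, which is a score, and the p-value before and after adjustment. Calls were made at an adjusted p under 0.05. For Huh7 shEZH2, estimated counts per library were deposited as well. These were rounded, and edgeR 4.0.16 compared 2 libraries against 2 by quasi-likelihood with TMM factors and filterByExpr (R 4.3.3), without a block. The SE was derived by dividing the fold change by the square root of F. Rows named as dates, 20 in all and at most 0.205% of counts, were left out.

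Differences between comparisons were divided by the root of the summed squared standard errors (two-sided normal test) and adjusted by Benjamini-Hochberg over all genes of a pair. Both steps were run on simulated data. For the differences, noise was drawn from the deposited standard errors of MS7126 in HepG2 and in Huh7, which share no controls. That run could not check those errors themselves, or pairs that share controls. Signs were checked by matching control levels between tables that share controls. The 8 members, the 14 other pathway genes and the marker lists were chosen with earlier results of these data known, and the rule for named genes takes all 8 members in every comparison. Where none was called, the text gives their range and the plot gives each value. The rule also takes EZH2, SREBF2, called pathway genes and the 5 genes most like the members, of which not all values are printed, and HSD17B7P2 and values of LBR and GGPS1 that were not called were added after seeing the data. Alternatives were DESeq2 1.42.0, no TMM factors, no filter, a replicate block, each library left out, another adjustment, a threshold of 0.01, a covariance for shared controls, a minimum mean of 10, and edgeR values for Huh7 shEZH2 in differences. Protein sequences were not used here.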

Additional observations from a re-analysis of the deposited data

Results flagged for a closer look

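Between the HepG2 and Huh7 libraries labelled shEZH2, the log2 fold changes of 4 members differed by the test of the difference itself (HepG2 minus Huh7, the authors' deposited values, adjusted over all genes). NSDHL differed by -1.21 (95% interval -1.53 to -0.89, adjusted p = 7.7e-13) and SC5D by -1.01 (95% interval -1.24 to -0.77, adjusted p = 1.94e-16). CYP51A1 differed by -0.38 (adjusted p = 1.21e-05) and DHCR7 by -0.26 (adjusted p = 0.00019). The same test called 51.5% of all genes, so 4 of 8 is close to the background. In the HepG2 libraries the mean level of EZH2 was above that of their control in the authors' deposited table (0.90, SE 0.38). In Huh7 it fell to 15.8% of the control. The part of that in these differences was not tested.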

How the results depend on the processing

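In Huh7 shEZH2 all 8 members stayed lower under DESeq2, without TMM factors, without the filter and in the authors' deposited values. Leaving out each library in turn gave from 8 to 8 members, with the lone library assumed to vary like the others, and all 32 gene values kept their call. Same-numbered libraries did not deviate together (r = -0.0257 over 9870 genes), and the fit with the replicate number as a block gave 8. No paired fit was possible for the deposited tables, which were analysed without library values. Of 496 gene values under alternatives none reversed. Another adjustment, the threshold of 0.01, the covariance and the minimum mean leave a sign as it was, so most could not reverse. For C24, 3 members in place of 5 were higher with the adjustment over every gene with a p, and 3 at an adjusted p under 0.01. With a covariance for the shared controls, 7 members in place of 3 differed between MS7126 and MS7126N2, 3 in place of 0 between C24 and MS7126N1, 2 in place of 1 between #664 and #667, and 1 in place of 0 between #665 and #667. The same setting called 4.12%, 1.68%, 13.3% and 14.8% of all genes in these pairs, and 8 members in place of 7 between MS7126 and MS7126N1. The assumed covariance shrinks the error by construction. Among the members in HepG2 under MS7126, HSD17B7 had the fewest counts and the largest SE (0.38), and in WEHI-231 under MS8815 Tm7sf2 did (0.24), both in the authors' deposited tables.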
